A study of Bubalus bubalis with 6 samples.

Results

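GPAM, LPIN1 and DGAT2 are enzymes of triglyceride assembly whose RNA was measured in both a linear and a circular form in buffalo adipose tissue. They are 3 of the 3970 genes that the deposited tables name as hosts of circular RNAs (circRNAs, closed RNA rings), and 12 of the 14990 circRNAs come from them. The paper counts fewer circRNAs, so shares over all circRNAs given here are those of the deposited set and not the paper's. A circRNA of the exon type is made when the end of an exon is spliced back to an upstream start. The members were taken by symbol from the table of circRNAs, and the linear RNA of each was read from the 1 Ensembl transcript listed there for it. The study compared 3 adult buffaloes of 30 months with 3 young buffaloes of 6 months, all Chinese buffaloes of the swamp type from a farm in Xinyang, with no allele or treatment named, and asked which circRNAs take part in fat deposition. Subcutaneous fat of the back was sequenced after ribosomal RNA had been depleted and with linear RNA kept. With 1 library per animal, the 3 animals of an age are the replicates of every test.

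Fat cells store fatty acids as triglycerides, which are built on a glycerol backbone. GPAM, an acyltransferase of the mitochondrial outer membrane, attaches the first fatty acid to glycerol 3-phosphate. After a second acylation, LPIN1 (lipin 1) removes the phosphate from phosphatidate to give diacylglycerol, and in mice it also acts in the nucleus as a partner of transcription factors of fat metabolism. DGAT2, an enzyme of the endoplasmic reticulum and the lipid droplet, adds the last fatty acid. Diacylglycerol and phosphatidate are also the starting points of phospholipids, so LPIN1 stands at a branch that GPAM feeds and DGAT2 draws from.

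The libraries held 10745 to 17680 back-spliced reads, the reads that span the junction of a circRNA. Linear RNA was given as FPKM (fragments scaled to transcript length and to the mapped fragments of a library), and the counts behind each value were not used, so the precision that depth gives to a single FPKM is unknown. Summed over all transcripts, FPKM came to between 657311 and 721755 in adult libraries and between 1093380 and 1237790 in young libraries, a difference that the groups carry throughout. Of 16 adipocyte markers 5 could be matched by name (PLIN4, CIDEC, PPARG, LPL and GPAM itself), none of them at 0 in a library, and their summed FPKM was 2987 to 5331 in adult libraries and 352 to 1834 in young libraries, lowest in young replicate 2. LPL, a lipase that frees fatty acids from blood triglycerides, and GPAM were called higher in adults, and PLIN4, CIDEC and PPARG did not pass the test and overlapped between the ages. The paper counts PPARG among genes found earlier to be differentially expressed in buffalo fat between these ages. LPL alone had 3067, 1981 and 1395 FPKM in adult replicates 1 to 3, against 184, 57.5 and 331 FPKM in young replicates 1 to 3. The common markers ADIPOQ, FABP4 and PLIN1 were not among the named genes. In whole tissue, fewer cells of a type and less RNA per cell cannot be told apart.

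DGAT2 and GPAM mRNA were upregulated in adult fat, whereas mRNA of LPIN1, an enzyme of a step between them, did not pass the test and its groups overlapped. DGAT2 had 3460, 2637 and 2016 FPKM in adult replicates 1 to 3, against 176, 26.6 and 657 FPKM in young replicates 1 to 3. The lowest adult library was 3.07 times the highest young library. The mean was 2704 ± 725 FPKM in adults and 287 ± 330 FPKM in young buffaloes (SD, n = 3 each), and the log2 fold change was 4.16 (SE 1.02, 95% interval 1.75 to 6.57, limma adjusted p = 0.0315) on the log2(FPKM + 1) scale. GPAM had 635, 420 and 312 FPKM in adult replicates 1 to 3, against 30.9, 5.41 and 165 FPKM in young replicates 1 to 3. Here too the groups did not overlap, with the lowest adult library at 1.89 times the highest young library. GPAM averaged 455 ± 164 FPKM in adults and 67.2 ± 85.9 FPKM in young buffaloes (SD, n = 3 each), with a log2 fold change of 3.76 (SE 1.05, 95% interval 1.28 to 6.23, limma adjusted p = 0.0464).

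LPIN1 had 132, 246 and 219 FPKM in adult replicates 1 to 3, against 145, 38.6 and 591 FPKM in young replicates 1 to 3. The highest and the lowest of the 6 libraries were both young, with every adult library between them. Its mean was 199 ± 59.7 FPKM in adults and 258 ± 293 FPKM in young buffaloes (SD, n = 3 each), and its log2 fold change of 0.36 (SE 0.88, limma adjusted p = 0.792) has a 95% interval from -1.72 to 2.44, which leaves room for a change of either sign. The difference of the mean FPKM and the log2 fold change of LPIN1 differ in sign. The log2 fold change was -0.60 without young replicate 2 and 1.35 without young replicate 3, and neither passed the test (limma adjusted p = 0.540 and 0.168).

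Beside these calls stand 10.5% of the 14691 genes and transcripts tested that were called higher in adults and 9.3% that were called lower, and 22.3% had every adult library above every young one and 20.4% every adult library below. A larger log2 fold change than that of DGAT2 was found for 17 features (0.116%) and larger than that of GPAM for 25 (0.170%), whereas 4712 (32.1%) exceeded that of LPIN1. When the libraries were scaled to an equal summed FPKM, the median log2 fold change of all features moved to 0.67, and the changes beyond that median were 4.30 for DGAT2, 3.87 for GPAM and 0.50 for LPIN1. With that scaling 91.3% of all calls were higher in adults, against 53.0% on the deposited scale. The calls of GPAM and DGAT2 depended on single libraries. GPAM stayed under an adjusted p of 0.05 in 1 of the 6 fits that left out a library, the one without young replicate 3 (limma adjusted p = 0.0122), and the other fits gave up to 0.144. DGAT2 stayed under it in 2 of 6, without young replicate 2 (limma adjusted p = 0.0332) or young replicate 3 (0.0136), and the other fits gave up to 0.108. With no filter on low values neither gene passed (limma adjusted p = 0.111 for GPAM and 0.085 for DGAT2).

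**Figure D1:**
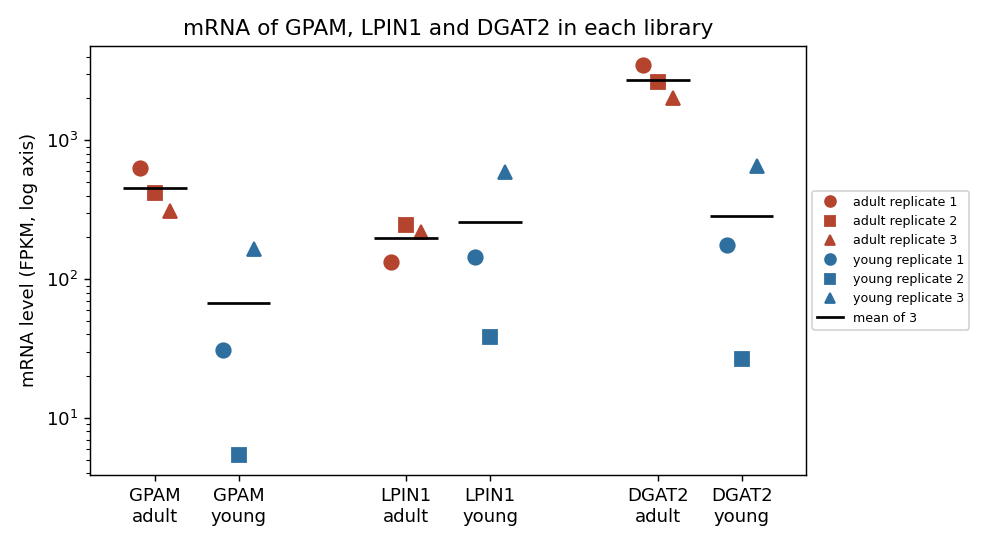
FPKM of DGAT2, GPAM and LPIN1 in each adult and young library (log axis, 1 symbol per replicate number, with the mean of each group as a bar). Every adult library lies above every young library for DGAT2 and GPAM, whereas the young libraries of LPIN1, from 38.6 to 591 FPKM, lie on both sides of the adult ones.

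The young animals differed among themselves far more than the adults did, and the 3 genes moved together in this. GPAM differed 2.04-fold between the highest and the lowest adult library and 30.6-fold between the highest and the lowest young library. For DGAT2 these ranges were 1.72-fold in adults and 24.7-fold in young buffaloes, and for LPIN1 1.87-fold in adults and 15.3-fold in young buffaloes. In each gene young replicate 3 was the highest and young replicate 2 the lowest young library. The SD of log2(FPKM + 1) of GPAM was 0.51 in adults and 2.35 in young buffaloes, that of LPIN1 0.48 in adults and 1.95 in young buffaloes, and that of DGAT2 0.39 in adults and 2.30 in young buffaloes. The limma fits take a common variance for both ages and draw it towards that of other features. Their p-values therefore take no account of this gap between the ages. A wider SD among the young libraries than that of GPAM was found for 161 of all features tested (1.10%), than that of DGAT2 for 168 (1.14%) and than that of LPIN1 for 250 (1.70%).

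The order of the genes by level also differed between the ages. FPKM is a level per length of transcript, so the levels of the 1 transcript read for each gene can be set side by side. Fragments assigned to any other transcript of a gene would not be part of them. In every adult library the order was DGAT2, GPAM, LPIN1 from high to low. In young replicates 1 and 3 it was DGAT2, LPIN1, GPAM, and in young replicate 2 it was LPIN1, DGAT2, GPAM. Among 3869 named genes, DGAT2 ranked 1 in all 3 adult libraries, against ranks of 40, 1042 and 6 in young replicates 1 to 3. GPAM ranked 13, 27 and 34 in adult replicates 1 to 3, against 737, 2959 and 83 in young replicates 1 to 3. LPIN1 ranked 134, 54 and 54 in adult replicates 1 to 3, against 55, 646 and 9 in young replicates 1 to 3. The named genes are those with at least 1 circRNA, so genes without a circRNA are not part of these ranks.

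Within a library, LPIN1 mRNA was low relative to the other members in adult fat. Of the summed FPKM of the 3 genes, LPIN1 held 3.12, 7.45 and 8.60% in adult replicates 1 to 3, against 41.2, 54.6 and 41.8% in young replicates 1 to 3. DGAT2 held 81.9, 79.8 and 79.2% in adult replicates 1 to 3, against 50.0, 37.7 and 46.5% in young replicates 1 to 3. The share of GPAM moved less, with 15.01, 12.7 and 12.2% in adult replicates 1 to 3, against 8.79, 7.66 and 11.7% in young replicates 1 to 3.

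Ratios of this kind do not depend on the FPKM scale of a library. They were chosen after the values had been seen. The ratio of GPAM over LPIN1 was 4.81, 1.70 and 1.42 in adult replicates 1 to 3, against 0.213, 0.140 and 0.280 in young replicates 1 to 3, so GPAM mRNA exceeded LPIN1 mRNA in every adult library and in none of the young ones. On the log2(FPKM + 1) scale the difference between the ages was 3.39, and single adult and young libraries differed by 2.34 to 4.88 (two-sided exact permutation test, p = 0.1 as the lowest value open to 3 against 3 libraries, 0.15 after adjustment over 3 ratios). DGAT2 over LPIN1 was 26.2, 10.7 and 9.20 in adult replicates 1 to 3, against 1.21, 0.691 and 1.11 in young replicates 1 to 3. The log2 difference was 3.80, with 2.92 to 5.22 between single libraries (exact permutation test, two-sided, p = 0.1, 0.15 after adjustment). Of the 14690 other features tested, 1.42% had a ratio to LPIN1 that was higher in every adult library than in every young one.

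The ratio of DGAT2, of the last step, to GPAM, of the first, overlapped between the ages. DGAT2 over GPAM was 5.45, 6.28 and 6.47 in adult replicates 1 to 3, against 5.69, 4.93 and 3.98 in young replicates 1 to 3. The log2 difference of 0.41 stood beside a range of -0.02 to 0.70 between single libraries (exact permutation test, two-sided, p = 0.2, 0.2 after adjustment over 3 ratios). A difference of the size seen for the ratios to LPIN1 lies outside that range.

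**Figure D2:**
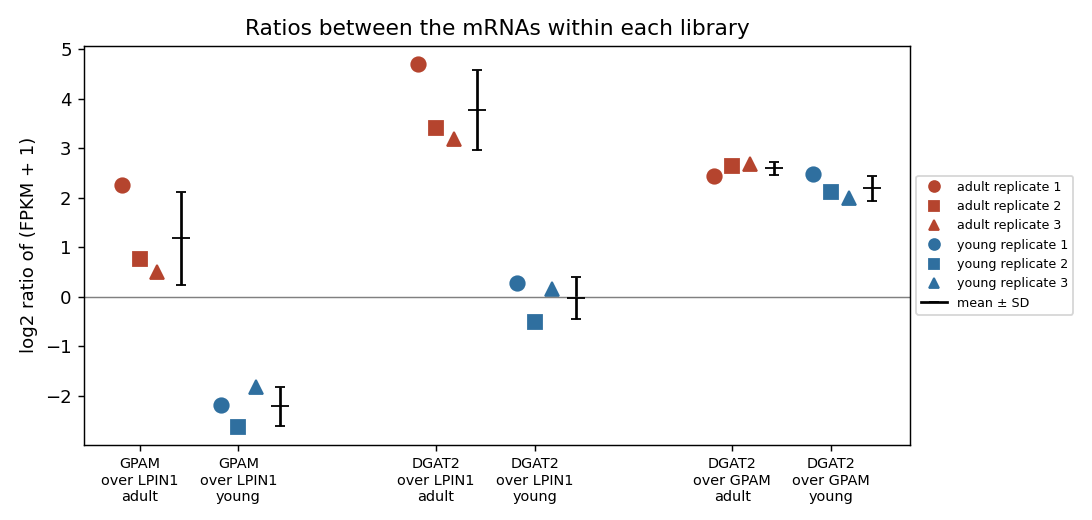
Log2 ratios of (FPKM + 1) between pairs of the 3 mRNAs within each library (1 symbol per replicate, bars show mean ± SD, n = 3 each). The adult ratios over LPIN1 lie above all young ones by at least 2.34 (GPAM) and 2.92 (DGAT2), and the ratios of DGAT2 over GPAM overlap between the ages.

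The levels were also set against the other matched adipocyte markers, an alternative chosen after the values had been seen. The mean log2(FPKM + 1) of PLIN4, CIDEC, PPARG and LPL was 9.55, 9.40 and 9.05 in adult replicates 1 to 3, against 7.79, 6.18 and 8.49 in young replicates 1 to 3. Relative to this mean, DGAT2 was at 2.21, 1.96 and 1.92 in adult replicates 1 to 3, against -0.32, -1.40 and 0.88 in young replicates 1 to 3, a difference of 2.31. GPAM was at -0.24, -0.68 and -0.76 in adult replicates 1 to 3, against -2.79, -3.51 and -1.11 in young replicates 1 to 3, a difference of 1.91. LPIN1 went the other way, at -2.50, -1.45 and -1.27 in adult replicates 1 to 3, against -0.60, -0.88 and 0.72 in young replicates 1 to 3, a difference of -1.49. None of the 3 genes overlapped between the ages on this scale (two-sided exact permutation test, p = 0.1 each). On it 0.422% of 14687 features had every adult library above every young one and 78.0% had every adult library below, so the position of LPIN1 was that of most features. The markers did not move alike. LPL was at a log2 fold change of 3.74, and PLIN4, PPARG and CIDEC were at 1.41, 1.28 and 0.97. GPAM, at 3.76, thus differed little from LPL in its change.

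Some markers of other cell types passed the test and most did not, beside 10.5% of all features called higher in adults and 9.3% called lower. Of the measured endothelial markers 2 of 7 were higher in adults (VWF and PTPRB), with a summed FPKM of 415 to 465 in adult libraries and 171 to 371 in young libraries. Of the macrophage markers 1 of 3 was lower in adults (CD163), with sums of 60.6 to 97.2 FPKM in adult and 177 to 201 FPKM in young libraries. MYH11 was lower among 2 smooth muscle and pericyte markers, and the other, NOTCH3, was at a log2 fold change of 0.63 (limma adjusted p = 0.0994), with no overlap between the ages. THY1 was lower among 3 stromal markers. KDR (endothelial, higher in adults) and FBN1 (stromal, lower) also did not overlap and were not called. Every adult library lay above every young one for 22.3% of all features and below for 20.4%. The sums were 16.9 to 26.4 FPKM in adult and 43.6 to 136 FPKM in young libraries for smooth muscle and pericytes, mostly MYH11 in every library, and 811 to 1288 FPKM in adult and 895 to 1859 FPKM in young libraries for stroma, where the ages overlapped. No marker of these lists was at 0 in a library. Their part in the values of GPAM, LPIN1 and DGAT2 was not tested.

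The 3 named genes whose log2 level followed each member most closely over the 6 libraries, by Pearson's r, were taken from 3196 candidates. The r values are descriptions over 6 libraries that fall into 2 ages, and all points share a library and its FPKM scale. For GPAM these were STIP1, a co-chaperone of heat shock proteins (r = 0.999), DOCK1, an activator of the GTPase Rac (0.998), and TRA2B, a splicing factor (0.998), with DGAT2 at rank 4 (0.996). For DGAT2 they were DOCK1 (0.998), STIP1 (0.997) and DECR1, a mitochondrial reductase of the oxidation of unsaturated fatty acids (0.997), with GPAM at rank 5 (0.996). Such an r takes no account of the size of a change. STIP1, DOCK1 and TRA2B were at log2 fold changes of 1.11, 0.59 and 0.36 and were not called, and DECR1 was at 2.09 (limma adjusted p = 0.0299). GPAM was at 3.76 and DGAT2 at 4.16. LPIN1 had a different set, namely ATG3, an enzyme of autophagosome formation (0.992), ACSM1, a synthetase for medium-chain acyl-CoA (0.988), and CLIC5, a chloride intracellular channel protein (0.980). The r of LPIN1 with GPAM was 0.657 (rank 392) and with DGAT2 0.623 (rank 445).

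The circular RNAs of these genes were sparse. GPAM gave 7 circRNAs and LPIN1 gave 4, all of the exon type, and DGAT2 gave 1 of the intron type, at 15:55968920-55969721 (801 bp, coordinates as the tables give them on cattle UMD3.1). Of all 14990 circRNAs, 90.9% were of the exon type and 110 (0.734%) of the intron type. The circRNA of DGAT2 had 2 back-spliced reads in adult replicate 2 and no read in the other libraries.

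The circRNAs of GPAM lie on chromosome 26 between 32970681 and 33003349 and span 5.17 to 23.8 kb, with a median of 8.99 kb against 11.9 kb over all circRNAs. The 5 seen only in adult libraries were 26:32986504-32998682 with 2 reads in replicate 2 and 1 read in replicate 3, 26:32981473-32986640 with 2 reads in replicate 2, 26:32980276-32987363 and 26:32994364-33003349 with 1 read each in replicate 2, and 26:32973006-32983924 with 1 read in replicate 1. The 2 seen only in young libraries, 26:32974934-32983924 with 3 reads and 26:32970681-32994510 with 1 read, both came from young replicate 3. One junction end, at 32983924, served 2 circRNAs of GPAM, one of them read in adult and the other in young fat. No circRNA of GPAM was read at both ages, and 4 of the 7 had 1 read, which cannot be seen at both. Of all circRNAs 24.6% were read at both ages, 28.2% in adult libraries only and 47.1% in young libraries only.

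The circRNAs of LPIN1 lie on chromosome 11 between 86060148 and 86097859 and span 1.10 to 24.2 kb. The shortest, 11:86096758-86097859, had the most reads of the 12, with 2 in adult replicate 1 and 6 in young replicate 3, and it is the only one of the 12 that the authors mark as published before, against 4.52% of all circRNAs. The circRNA 11:86087883-86090210 had 1 read in adult replicate 2 and 3 reads in young replicate 3. The other two share the end at 86084336 and were seen in young libraries only, 11:86079616-86084336 with 2 reads in replicate 3 and 11:86060148-86084336 with 1 read in replicate 1.

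**Figure D3:**
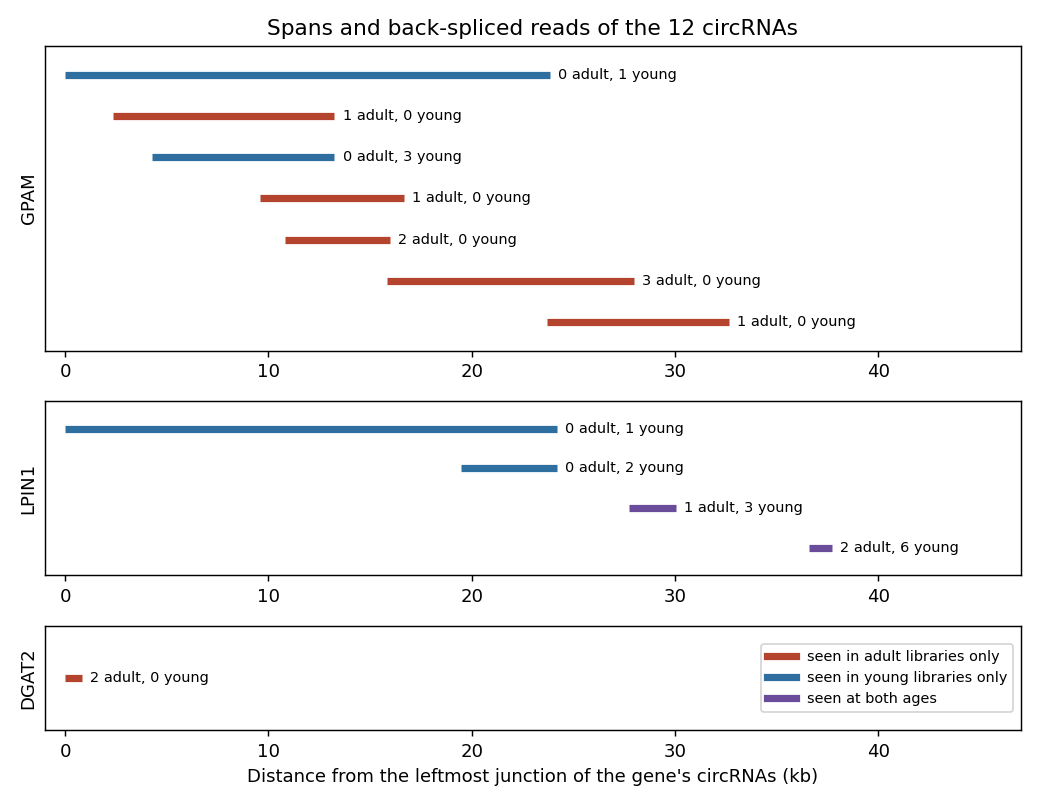
Spans of the 12 circRNAs of GPAM, LPIN1 and DGAT2, as distance in kb from the leftmost junction of each gene's circRNAs, coloured by the age in which reads were seen and labelled with the back-spliced reads of the 3 adult and the 3 young libraries. No circRNA of GPAM was seen at both ages, and the 2 shortest of LPIN1 were, beside 24.6% of all circRNAs.

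Of the 12 circRNAs 9 were seen in 1 library and 3 in 2 libraries, and 5 rested on 1 read. Over all circRNAs 64.6% were seen in 1 library. None had reads in at least 3 libraries, so none entered the test across circRNAs, in which 0.106% of 2834 were called higher in adults and 0.776% lower. With 2 libraries as the minimum, 3 members entered and 0 were called, with a lowest limma adjusted p of 0.405 and 0 at an unadjusted p under 0.05. Whether a single member circRNA changed with age was not detectable at this depth. Of their 29 reads, 24 (82.8%) came from adult replicate 2 and young replicate 3, which held 40.8% of all back-spliced reads and were the deepest library of each age, and young replicate 2 gave 0.

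Summed over its circRNAs, GPAM had 1, 6 and 1 back-spliced reads in adult replicates 1 to 3, against 0, 0 and 4 in young replicates 1 to 3. These 8 of 39489 adult reads were 0.0203% (exact Clopper-Pearson 95% interval 0.00875 to 0.0399%) and the 4 of 43676 young reads were 0.00916% (0.00250 to 0.0234%), a ratio of 2.21 with an interval of 0.593 to 10.04. Adult replicate 2 gave 6 of the 8 adult reads, and without it the log2 ratio of the scaled means was 0.08, against 1.20 with all libraries. In scaled reads the mean was 4.36 ± 4.10 in adults and 1.89 ± 3.28 in young buffaloes (SD, n = 3 each, exact permutation test, two-sided, p = 0.5). LPIN1 had 2, 1 and 0 reads in adult replicates 1 to 3, against 1, 0 and 11 in young replicates 1 to 3. Its share was 0.00760% of adult reads (0.00157 to 0.0222%) and 0.0275% of young reads (0.0142 to 0.0480%), a ratio of 0.277 with an interval of 0.0501 to 1.02. The scaled mean of LPIN1 was 1.80 ± 1.95 in adults and 5.91 ± 8.49 in young buffaloes (SD, n = 3 each, exact permutation test, two-sided, p = 0.7).

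Young replicate 3 alone gave 11 of the 12 young reads of LPIN1, and without it the log2 ratio of the scaled means, -1.72, turned to 0.78. The 2 adult reads of DGAT2 were 0.00506% of adult reads (0.000613 to 0.0183%), and 0 of 43676 young reads allow a share of up to 0.00687% when the limit is set at 3 reads (0.00845% as the upper end of the two-sided exact interval), so no fold is given. After adjustment over the 3 genes every p of the summed circRNAs was 1. The reads carried no molecular identifiers, and the intervals and the limit cover counting error only, not the spread between animals.

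Circular and linear RNA were then compared within each gene and library. In adult libraries 5.86 back-spliced reads of GPAM were found per 1000 FPKM summed over the libraries, against 19.8 in young libraries. For LPIN1 the values were 5.02 in adult and 15.5 in young libraries, and for DGAT2 0.247 in adult libraries, with no read in young ones. By library, GPAM had 1.58, 14.3 and 3.21 reads per 1000 FPKM in adult replicates 1 to 3, against 0, 0 and 24.2 in young replicates 1 to 3. LPIN1 had 15.2, 4.06 and 0 in adult replicates 1 to 3, against 6.90, 0 and 18.6 in young replicates 1 to 3. These reads are not scaled to the depth of a library, whereas FPKM is. In this unit the highest value of either gene was in young replicate 3, which held the most back-spliced reads (17680). With scaled reads and a pseudocount of 1, LPIN1 was instead highest in adult replicate 1 (log2 of -4.77, against -5.15 in young replicate 3). Young replicate 2 had no read at a linear level of 5.41 FPKM for GPAM and 38.6 FPKM for LPIN1.

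On a log2 scale with a pseudocount of 1 on both sides, circular minus linear RNA of GPAM was -7.76, -5.38 and -6.68 in adult replicates 1 to 3, against -4.99, -2.68 and -4.64 in young replicates 1 to 3. The groups did not overlap and the difference was -2.50 (exact permutation test, two-sided, p = 0.1, 0.3 after adjustment over the 3 genes). Among 3869 host genes 17.4% also had every adult value below every young one. Because 2 young libraries had no read of GPAM, the pseudocount and the linear level alone set their values, and with a pseudocount of 0.5 the p was 0.2. LPIN1 was at -4.77, -6.62 and -7.78 in adult replicates 1 to 3, against -5.56, -5.31 and -5.15 in young replicates 1 to 3, a difference of -1.05 with overlapping groups (exact permutation test, two-sided, p = 0.4, 0.4 after adjustment). DGAT2 was at -11.76, -9.35 and -10.98 in adult replicates 1 to 3, against -7.46, -4.79 and -9.36 in young replicates 1 to 3, a difference of -3.49 (exact permutation test, two-sided, p = 0.2, 0.3 after adjustment). Only adult replicate 2 had reads of DGAT2, so the linear level and the pseudocount alone set the values of the other libraries. Without adult replicate 2 the difference was -4.16, which is the log2 fold change of the mRNA in the same libraries (4.16) with its sign turned. The comparison for DGAT2 therefore restates the linear change and cannot show a change of its circular RNA.

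The linear RNA of these genes ranked high among host genes and the circular RNA did not follow. By mean FPKM over the 6 libraries, DGAT2 was at rank 1 (1495 FPKM), GPAM at rank 34 (261 FPKM) and LPIN1 at rank 42 (229 FPKM) of 3869 host genes, whose median was 14.8 FPKM. In all libraries DGAT2 had 2 back-spliced reads, GPAM 12 and LPIN1 15, against 6 for the median host gene. Per 100 FPKM this came to 0.134 reads for DGAT2, 4.59 for GPAM and 6.56 for LPIN1, against a median of 50.2. Fewer reads per 100 FPKM than DGAT2 were found for 2 host genes, TXNIP and PDK4, which were named after the values had been seen. At the upper limit of the counting interval of DGAT2, 7.22 reads, 15 host genes (0.388%) lay lower. For GPAM 298 host genes (7.70%) lay lower and for LPIN1 430 (11.1%). Only genes with at least 1 circRNA are host genes, and FPKM is per length of transcript whereas back-spliced reads are not, so these ranks describe the tables and say nothing of how often a transcript is circularised.

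**Figure D4:**
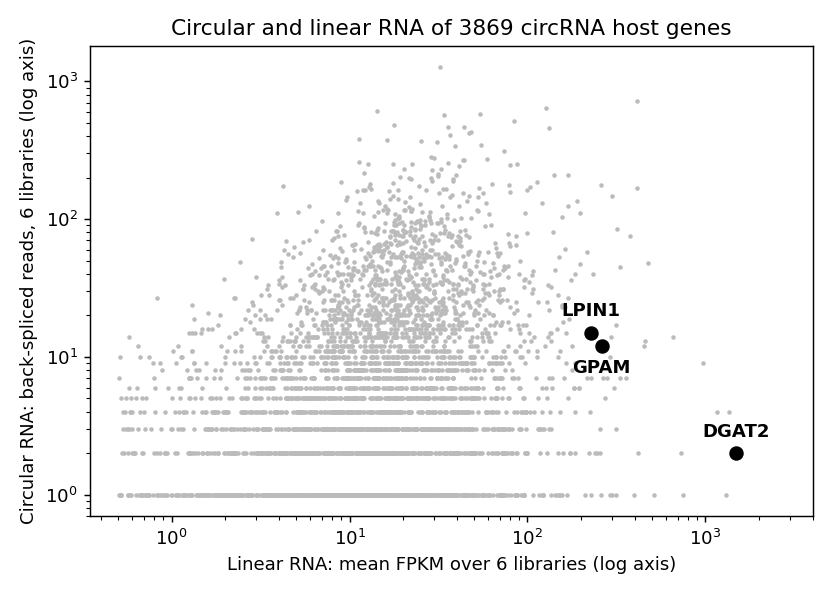
Back-spliced reads summed over the 6 libraries against mean FPKM for 3869 host genes (both axes log, 1 point per gene, the 3 members in black with their names). DGAT2 has the highest mean FPKM of all (1495) and 2 reads, and GPAM and LPIN1 lie at 12 and 15 reads among genes of 261 and 229 FPKM.

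The other enzymes of triglyceride assembly gave a mixed picture. Of a list of 30 genes 11 could be matched by name and 10 passed the filter on low values, and of these 4 were higher in adults, 0 lower, and 6 did not pass the test, beside 10.5% of all features called higher and 9.3% called lower. The median log2 fold change was 0.97, against 0.01 over all features, and without GPAM, LPIN1 and DGAT2 it was 0.91, with 2 of 7 called higher. LPIN2, LPIN3 and DGAT1, also listed, were not matched, so the values of LPIN1 and DGAT2 do not stand for their whole steps. GPAT3, which catalyses the same step as GPAM in the endoplasmic reticulum, had 35.9, 33.3 and 27.1 FPKM in adult replicates 1 to 3, against 4.41, 6.64 and 21.2 FPKM in young replicates 1 to 3, a log2 fold change of 1.76 (SE 0.49, limma adjusted p = 0.047). AGPAT5, an acyltransferase of the second step, averaged 20.2 ± 1.74 FPKM in adults and 10.3 ± 1.98 FPKM in young buffaloes (SD, n = 3 each), a log2 fold change of 0.91 (SE 0.20, limma adjusted p = 0.0227). Among those that did not pass, ACSL1, which activates fatty acids to acyl-CoA, was at a log2 fold change of 1.08 (limma adjusted p = 0.310) and AGPAT4 at 1.03 (0.186). The count of 4 is not stable, since it was 0 without any one adult library or without young replicate 1, 2 without young replicate 2 and 4 without young replicate 3.

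The circRNAs of GPAT3 lay on the adult side, as did its mRNA. How many other host genes have summed reads that split in this way was not counted. The circRNAs of GPAT3 had 8, 7 and 4 back-spliced reads in adult replicates 1 to 3, against 0, 0 and 1 in young replicates 1 to 3, and were picked out after their values had been seen. All 3 share the junction start at 6:100107976, and the 1 that could be tested did not pass (limma adjusted p = 0.577). Over the whole list of triglyceride assembly, 32 circRNAs had 50 reads in adult and 47 in young libraries, and of the 2 that could be tested 0 were called, with 0 at an unadjusted p under 0.05.

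Other lists of the pathway were set beside the 10.5% of all features called higher. The first covered the use of phosphatidate and diacylglycerol for phospholipids, with enzymes that interconvert these lipids or remodel phospholipids included. Of its 11 measured genes, 2 were higher in adults and 0 lower, with a median log2 fold change of 0.26. These were MBOAT2, a lysophospholipid acyltransferase, at 1.19 (SE 0.32, limma adjusted p = 0.0399), and DGKH, a kinase that returns diacylglycerol to phosphatidate, at 1.04 (SE 0.28, limma adjusted p = 0.043). Their count was 0 when any one library other than young replicate 3 was left out, and 3 without young replicate 3. Of 4 genes of triglyceride breakdown and the lipid droplet, 0 were called by limma and 0 had an unadjusted p under 0.05, with a median of 0.63. Of 7 genes that control lipins and the lipogenic programme, 0 were called by limma and 2 had an unadjusted p under 0.05, with a median of 0.29. PPARG, the main transcription factor of fat cell formation, was at a log2 fold change of 1.28 (limma adjusted p = 0.112), and MTOR, a kinase that keeps lipin 1 out of the nucleus in mouse cells, at 0.63 (limma adjusted p = 0.0761).

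**Figure D5:**
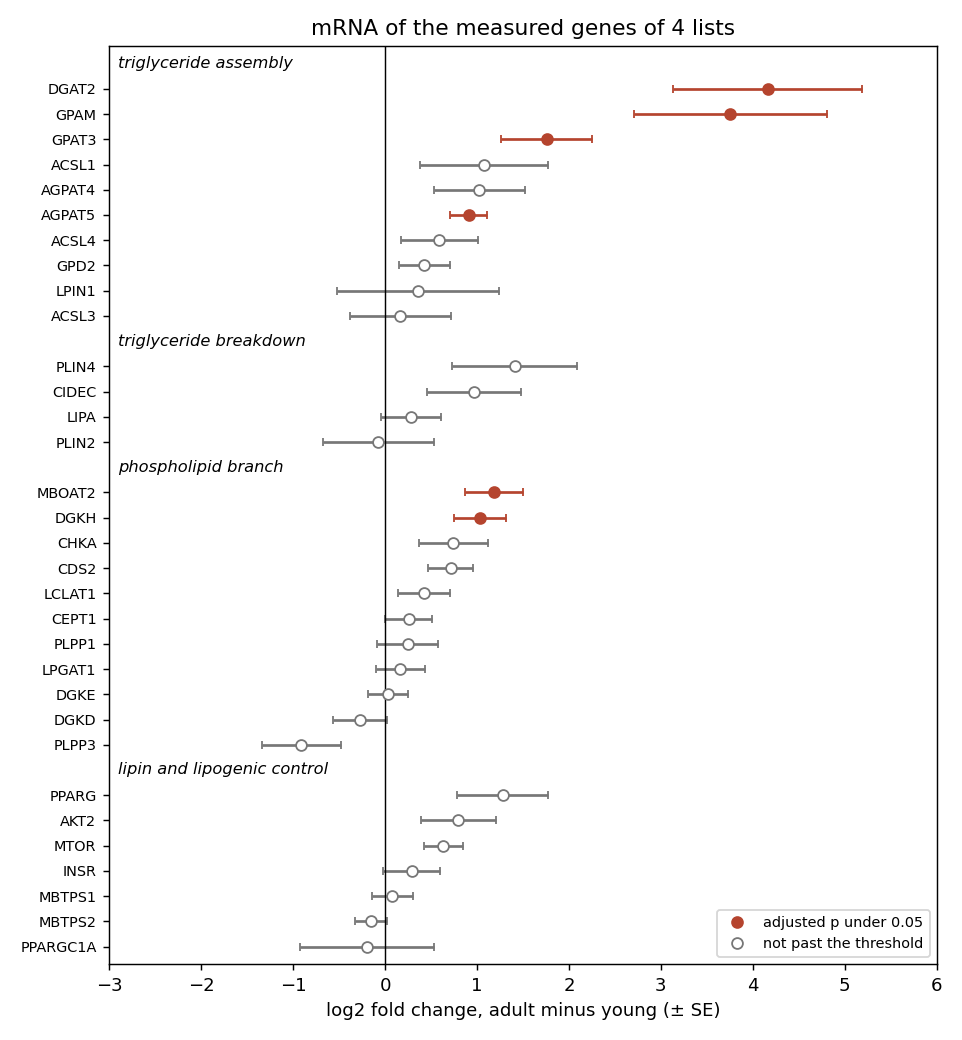
Log2 fold change of mRNA, adult minus young, for each tested gene of the 4 lists (bars are ± SE, points right of 0 are higher in adults, filled points passed a limma adjusted p of 0.05). DGAT2 at 4.16 and GPAM at 3.76 lie apart from the other genes of triglyceride assembly, and LPIN1 lies at 0.36.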

How the data were processed

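Only processed tables were used, from 3 adult and 3 young back fat libraries that the authors made from 1 animal each. In the authors' circRNA pipeline, reads trimmed by Trim Galore went through STAR, on the cattle UMD3.1 genome, and CIRCexplorer2. The table that the authors deposited holds scaled back-spliced reads as log2 of the value plus 1. Division by 1 step per library returned whole reads for 100% of the values above 0 (relative tolerance 1e-06). For mRNA and lncRNA the deposited unit is log2(FPKM + 1), on Ensembl and assembled transcripts. TopHat2 2.0.14 and Cufflinks stand in the submitters' processing notes with no role given. The authors' tables of differential features, with their fold changes and p-values, were not used.

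FPKM were summed over the transcripts listed for a symbol, transcripts without a symbol were kept singly, and a mean FPKM of at least 0.5 was required. The 58053 assembled transcripts entered only an alternative. Differences by age were fitted in limma 3.58.1 under R 4.3.3, with a variance trend, a pseudocount of 1, Benjamini-Hochberg adjustment over all features and a threshold of 0.05. The variance of a feature was taken as common to both ages and was moderated by that of the other features. circRNAs entered with reads in at least 3 libraries. For single values, two-sided exact permutation tests over the libraries were used, whose smallest p is 0.1. Shares have exact binomial intervals at 95%. The members, lists and rules were chosen with earlier results of these data known. Named genes are the members, list genes past the test or up to 4 others per list with the largest change, the 3 most like each member at a mean FPKM of at least 5, and markers past the test. Alternatives changed the pseudocount, filter, scaling, variance model, transcripts, libraries and replicate block. The fits were tested on simulated data.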

Additional observations from a re-analysis of the deposited data

How the results depend on the processing

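The log2 fold changes of GPAM and DGAT2 stayed positive under every alternative run, but not every call held. GPAM, at 3.76, had a limma adjusted p of 0.111 with no filter, 0.0513 without the trend and 0.0925 with assembled transcripts added. DGAT2, at 4.16, had 0.085 with no filter and 0.0664 with assembled transcripts. The pseudocount of 0.1 and the equal median scaling changed no call of the 3 genes. Leaving out each library in turn gave 2.59 to 4.94 for GPAM, 2.95 to 5.24 for DGAT2 and -0.60 to 1.35 for LPIN1, which reversed without young replicate 2 (-0.60). The cause of these changes was not tested.

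Same-numbered adult and young libraries did not deviate together (r of -0.07, -0.03 and -0.12 over features), so the numbers do not pair the samples. With the replicate block GPAM kept 3.76 at a limma adjusted p of 0.058, DGAT2 was called at 0.0434, the calls over all features were 671 higher and 793 lower, and the list of triglyceride assembly had 1 gene called higher and the phospholipid list 0.

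Over all features, 1542 were called higher and 1366 lower. Equal summed FPKM gave 6538 higher and 623 lower. Under it 8 genes of triglyceride assembly, 3 of breakdown, 9 of the phospholipid list and 6 of the control list were higher. Leaving out each library gave 366 to 1688 higher and 552 to 1333 lower over all features, 0 to 4 higher for assembly, 0 to 1 for breakdown, 0 to 3 for the phospholipid list and 0 to 1 for the control list.

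For circRNAs, 3 of 2834 were called higher and 22 lower. The counts higher and lower were 20 and 70 with at least 2 libraries, 13 and 39 with no filter, 9 and 47 with a pseudocount of 0.5 reads, 19 and 38 per 10000 back-spliced reads, 4 and 79 without the trend, and 27 and 107 with the replicate block. Leaving out each library gave 0 to 1 higher and 0 to 14 lower. The circRNAs of GPAM, LPIN1 and DGAT2 had 0 calls in all of these. The summed log2 ratio of LPIN1 circRNAs, -1.72, was -2.96 to 0.78 when each library was left out, and reversed only without young replicate 3 (0.78). Relative to the other adipocyte markers, leaving out each library gave 1.39 to 2.59 for GPAM, 1.76 to 2.89 for DGAT2 and -1.80 to -1.001 for LPIN1.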

Other observations

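The table of lncRNAs pairs 1323 of its 9494 transcripts with a neighbouring or overlapping transcript. No lncRNA was paired with the transcripts of GPAM, LPIN1 or DGAT2, and 7 were paired with other genes of the pathway lists, namely PLPP1, LIPA, ACSL1, INSR and PLIN4. The lncRNA antisense to PLIN4, a coat protein of lipid droplets, was at log2(FPKM + 1) values of 4.49, 4.05 and 3.34 in adult replicates 1 to 3, against 1.99, 2.65e-05 and 3.06 in young replicates 1 to 3. It was picked out after its values had been seen and was not tested.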
